A study of Mus musculus with 16 samples.

Results

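Transcripts of the sterol and mevalonate pathway were examined in the cortical bone of the mouse femur after hindlimb unloading. The set was given as 8 genes by symbol (Hmgcs1, Sqle, Insig1, Lss, Idi1, Fdps, Fdft1 and Srebf2), and a gene was taken from the deposited values where a feature carried exactly that symbol. This gave 7 of the 8 genes, among 36829 features in all, and the expression of Hmgcs1 was not analysed here. All 7 passed the filter on low values (0.5 RPKM or more on average), as did 16973 features in total. The animals were 11-week-old female C57Bl/6 mice with no allele or agent named in the labels. The 8 control mice bore weight normally, and the 8 HLU (hindlimb unloaded) mice had been suspended by the tail for 7 days so that the hind limbs did not touch the cage. The bone ends had been cut off and the marrow flushed with buffer before RNA was taken, and every mouse gave a separate library. RPKM expresses the reads on a gene relative to its length and to the depth of its library. Because each library is a whole piece of bone, fewer cells of a type and less RNA per cell cannot be told apart.

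The mevalonate pathway builds isoprenoid units from acetyl-CoA, joins them into farnesyl diphosphate, and from there leads either to cholesterol or to the lipid anchors that are attached to small GTPases. When sterols run low in the endoplasmic reticulum, the protein SCAP carries the transcription factor encoded by Srebf2 to the Golgi apparatus, where proteases free its active part, and most enzymes of the pathway are then transcribed together. INSIG proteins hold SCAP back when sterols are plentiful. In bone the pathway is best known through the nitrogen-containing bisphosphonates, drugs against osteoporosis that inhibit farnesyl diphosphate synthase in osteoclasts.

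Promoter sequence was read for the members with an entry in the RefSeq promoter table (GRCm38.p6), since a common promoter element would be 1 thing that the members share apart from their names. The 250 bases before each start were searched on both strands for CCAAT, the site of NF-Y, which acts beside the sterol-responsive factor. CCAAT occurred before the start in all 4 members that had an entry and expression values (Insig1, Lss, Idi1 and Srebf2), and in 33.8% of the 32851 promoters in the table. Capitals mark this motif, which reads ATTGG because it lies on the other strand in each of them. For Srebf2 they also mark TCACNCCA, the core of the sterol response element, which 3.67% of promoters hold and which was added after the sequences had been seen. The longer form TCACNCCAC was searched too, with 0 matches in these 4 members and a share of 1.05% of promoters. GGGCGG, also searched, occurred in all 4 members and in 32.7% of promoters. Hmgcs1, whose expression was not analysed, has an entry too, with 1 match to TCACNCCAC, 3 to CCAAT and 2 to GGGCGG. The windows lie at chr5:28071166-28071230, chr10:76531513-76531577, chr13:8885576-8885605 and chr15:82147104-82147168, all on the + strand.
Insig1: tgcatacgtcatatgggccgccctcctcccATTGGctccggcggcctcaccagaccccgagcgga
Lss: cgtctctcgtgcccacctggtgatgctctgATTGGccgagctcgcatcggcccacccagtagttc
Idi1: catggtccaaggtgccATTGGctggcgacc
Srebf2: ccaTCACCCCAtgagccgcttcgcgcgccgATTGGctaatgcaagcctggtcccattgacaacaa
The match to CCAAT lay 216 bases before the start in Insig1, 62 in Lss, 14 in Idi1 and 135 in Srebf2. Idi1 holds 2 matches, and the other lies further upstream, outside the stretch printed. GENCODE M21 starts this gene earlier, at chr13:8885501, so the Idi1 stretch precedes the RefSeq start but lies inside the GENCODE gene. A match is a description of the letters and not of a bound site.

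The libraries had been divided by between 7067512 and 21363584 reads, and 3 reads on a gene of 1 kb corresponded to 0.140 to 0.424 RPKM. Whole reads could be recovered for 100% of the features kept, by taking the shortest gene length that makes all values whole. The counts are thus inferred. In simulated data all 16 counts were right for 11366 of 11372 features at or above the filter. Intervals from reads cover counting error only. Markers of osteocytes, the cells embedded in bone, were present in every library: Dmp1 ranged from 50.8 to 181 RPKM, and Sost from 29.4 to 136 RPKM. Marrow transcripts were present too. The summed level of the 11 granulocyte markers listed ranged from 18691 to 39691 RPKM in control and from 13214 to 46531 RPKM in HLU mice. None of the 11 skeletal muscle markers had a feature of its own by symbol, so muscle RNA could not be assessed. The summed erythroid level was lower in HLU mice (3331 ± 1398 against 5124 ± 1990 RPKM, SD, n = 8 each, exact permutation p = 0.0412). The summed adipocyte level was higher (704 ± 120.0 against 568 ± 124 RPKM, exact permutation p = 0.0451), and Fabp4 alone had a median of 498 RPKM. A marker score instead averages centred log2 values, so that each gene counts alike. By score, HLU minus control was -0.60 for erythroid (exact permutation p = 0.0510) and 0.36 for adipocyte markers (exact permutation p = 0.256).

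With 8 mice against 8, the comparison asked whether 7 days without load changed these transcripts. No member was called at an unadjusted p under 0.05 with a change of at least 1.2-fold, and the 7 members had a median log2 fold change of -0.00. Of all 16973 features, 5.87% were called (188 higher and 808 lower in HLU, median log2 fold change -0.10), and 0 passed an adjusted p under 0.1. At an unadjusted p under 0.05 with any size of change there were 1049 features and no member. The fit was limma on log2(RPKM + 0.1) with Benjamini-Hochberg adjustment over all features, so small changes of the lowest genes are understated. No member had groups that did not overlap, which 0.0295% of features did. When the libraries were scaled by quantile normalization, the median of all features moved to 0.00, and the split of calls moved to 460 higher and 364 lower. Median-of-ratios scaling gave 381 higher and 395 lower. Relative to the median of all features, the log2 differences of the members ran from -0.19 for Sqle to 0.25 for Fdft1.

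Among the regulators, Srebf2 encodes the factor that drives the pathway (GRCm38 chr15:82147181-82205379, + strand, with the microRNA gene Mir33 inside an intron). It ranged from 3.41 to 8.90 RPKM in control mice (median 5.75) and from 2.31 to 6.43 RPKM in HLU mice (median 5.37). All but 1 HLU mouse lay within the range of the control mice, and the lowest value of all was that of HLU 4. The mean was 5.82 ± 2.04 RPKM in control and 5.07 ± 1.35 RPKM in HLU mice (SD, n = 8), and the log2 fold change was -0.17 with a standard error of 0.23 (adjusted p = 0.853). With the erythroid and granulocyte scores as covariates it was 0.38 (adjusted p = 0.267). Insig1 encodes the sterol sensor that retains SCAP (chr5:28071363-28078662, + strand). It ranged from 11.1 to 17.3 RPKM in control mice (median 14.2) and from 10.4 to 21.3 RPKM in HLU mice (median 15.0). HLU mice held both the highest value (HLU 5) and the lowest (HLU 3). The log2 fold change of Insig1 was 0.11 with a standard error of 0.14 (exact permutation p = 0.434, adjusted p = 0.842), and its 95% interval ran from 0.882-fold to 1.32-fold.

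The next pair make and join the isoprenoid units. Idi1 encodes isopentenyl-diphosphate isomerase (chr13:8885501-8892451, + strand) and rested on only 10 to 72 reads per library. Its values ran from 0.311 to 1.27 RPKM in control mice (median 0.853) and from 0.579 to 1.25 RPKM in HLU mice (median 0.694). The HLU values lay entirely inside the control range. Its log2 fold change was -0.00 with a standard error of 0.25 (exact permutation p = 0.996, adjusted p = 0.999), and its 95% interval ran from 0.690-fold to 1.45-fold. Fdps encodes farnesyl diphosphate synthase (chr3:89093588-89101959, - strand) and had the highest mean RPKM of the members. It ranged from 13.0 to 29.8 RPKM in control mice (median 22.7) and from 9.82 to 30.2 RPKM in HLU mice (median 21.1). The ranges all but coincided, and the lowest value was again that of HLU 4. The log2 fold change of Fdps was -0.08 with a standard error of 0.21 (exact permutation p = 0.717, adjusted p = 0.924). It was 0.06 without HLU 4, and 0.27 with the erythroid and granulocyte scores as covariates (adjusted p = 0.457).

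The remaining members commit the pathway to sterols. Fdft1 encodes squalene synthase, the first enzyme of the sterol branch (chr14:63145150-63179578, - strand). It ranged from 16.1 to 19.6 RPKM in control mice (median 17.3) and from 16.7 to 22.5 RPKM in HLU mice (median 19.2). The 3 highest values of all 16 were those of HLU 5, HLU 6 and HLU 7, and 6 HLU mice exceeded the median of the controls. The means were 17.6 ± 1.21 and 19.6 ± 2.11 RPKM, 1.11-fold (95% interval 0.978 to 1.26), a log2 fold change of 0.15 with a standard error of 0.09. The 2 tests differed: limma did not reach an unadjusted p under 0.05 (adjusted p = 0.744), whereas the two-sided exact permutation test, which draws on this gene alone, gave p = 0.0402. The change was below 1.2-fold in either case. Under quantile normalization it was 0.28 on the log2 scale and the gene was called (adjusted p = 0.897).

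Sqle encodes squalene epoxidase, which carries out a rate-limiting step (chr15:59315077-59331192, + strand). It ranged from 1.75 to 3.53 RPKM in control mice (median 2.41) and from 1.22 to 2.68 RPKM in HLU mice (median 1.90). The HLU mice split into 4 that lay below every control mouse (HLU 1, HLU 4, HLU 6 and HLU 7) and 4 between 2.18 and 2.68 RPKM. The log2 fold change was -0.29 with a standard error of 0.19 (exact permutation p = 0.131, adjusted p = 0.747), and the interval ran from 0.622-fold to 1.07-fold. Lss encodes lanosterol synthase, which closes the sterol rings (chr10:76531588-76557138, + strand). It ranged from 0.503 to 0.726 RPKM in control mice (median 0.619) and from 0.562 to 0.801 RPKM in HLU mice (median 0.635). HLU 2 and HLU 6 lay above every control mouse, and the log2 fold change was 0.08 with a standard error of 0.16 (exact permutation p = 0.334, adjusted p = 0.903).

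**Figure D1:**
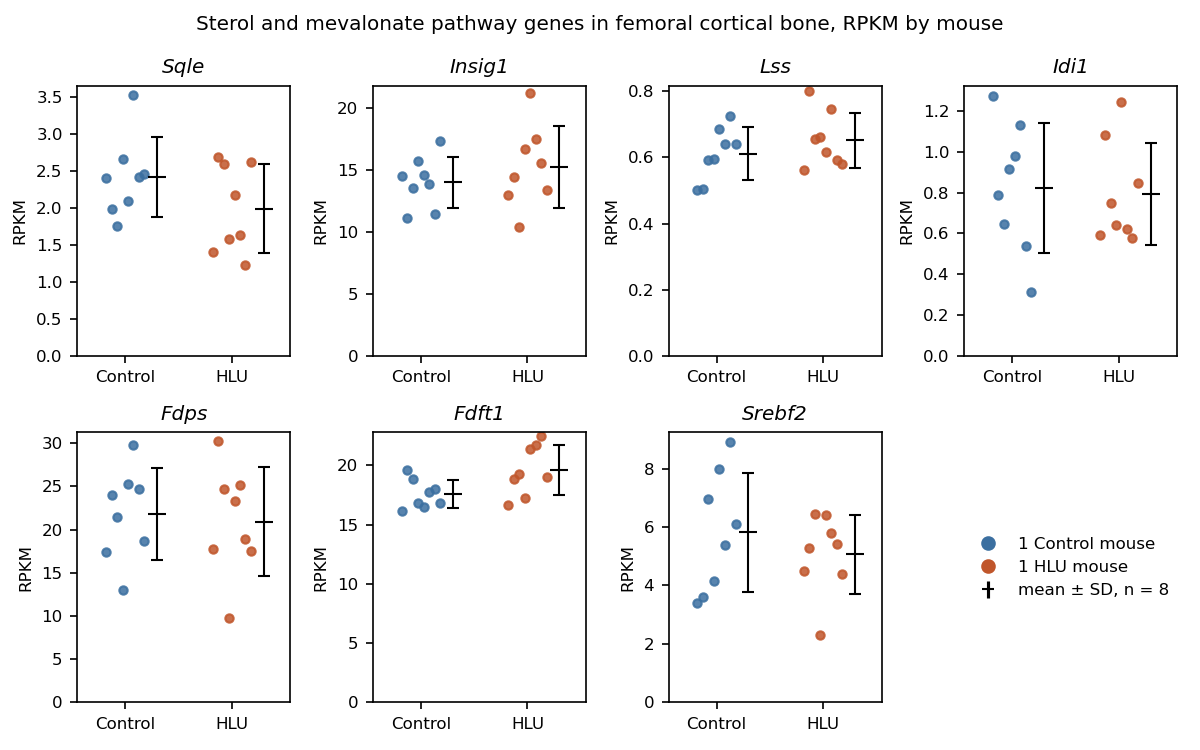
RPKM of each member in each of 8 control and 8 HLU mice (points) with the mean and SD of each group. The groups overlap in all 7 panels; Fdft1 is the tightest, and 4 HLU mice lie below the control range for Sqle.

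The values of some members carry a limit set by their sequence. Fdps transcripts matched 5 processed pseudogenes over at least 200 bases at 90% identity or more, those of Idi1 matched 3 (1 of them, Gm13502, at 100% over 684 bases), and those of Fdft1 matched 1, while no such copy was found for Sqle, Insig1, Lss or Srebf2. Reads shared with such copies could be counted on either. Exons of Fdft1 overlap those of Ctsb, an abundant lysosomal protease gene, over 774 bases on the opposite strand, and those of Fdps overlap Gm43738 over 1124 bases on the same strand. Exons of Lss and Idi1 also overlap genes on the opposite strand, over 381 and 323 bases. The libraries were of a kind that does not keep strand, so reads in these opposite-strand overlaps cannot be assigned by strand. For Gm43738, on the same strand as Fdps, strand would not separate the reads. The gene lengths implied by the RPKM values (1233 bases for Fdps, 18461 for Lss) differed from the exon lengths of GENCODE M21 (4208 and 10787), so the order of the members per kilobase depends on the lengths the authors used. On the RPKM scale that order ran from Fdps (mean 21.4), Fdft1 (18.6) and Insig1 (14.7) through Srebf2 (5.44) and Sqle (2.20) to Idi1 (0.809) and Lss (0.632). Neighbours in this order overlapped in their ranges over mice, except Insig1 (10.4 RPKM or more) and Srebf2 (8.90 RPKM or less).

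The members differed in their spread between mice. Within groups, the SD of log2(RPKM + 0.1) was 0.13 for Fdft1, and only 0.896% of features kept had a value as low or lower. Lss followed with 0.16. Counting of its 66 to 294 reads alone gives 0.11 on a log2 scale without the added 0.1. The added 0.1 narrows the spread of genes this low, so these SDs are not on the same scale. Insig1 had an SD of 0.27 and Sqle of 0.37, against a median of 0.43 over all features kept. Fdps (0.44), Idi1 (0.48) and Srebf2 (0.49) varied about as much as the median feature or more. Of these only Idi1 had a large counting SD (0.27, again without the added 0.1). From the lowest mouse to the highest, Idi1 spanned 4.10-fold, Srebf2 3.85-fold and Fdft1 1.39-fold.

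The rest of the pathway was counted from 5 lists with 61 genes tested. Of these, 0 were higher and 2 were lower, beside 1.11% and 4.76% of all features, 45 had a log2 fold change below 0, and their median was -0.10, as it was for all features. Among the 14 other enzymes of sterol synthesis none was called. The 3 of that list with the highest level were Lbr (log2 fold change -0.41, exact permutation p = 0.0821), Ebp (-0.15, p = 0.175) and Nsdhl (-0.15, p = 0.245), the first of which also encodes a protein of the inner nuclear membrane. Among 13 genes of sterol sensing 1 was lower. Trim25, a ubiquitin ligase best known for antiviral signalling, fell from 11.7 ± 2.15 to 8.45 ± 1.99 RPKM (SD, n = 8 each), with 5 HLU mice below every control mouse (log2 fold change -0.48, exact permutation p = 0.00777, adjusted p = 0.744).

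Abundant genes of the sensing list included Rnf139 and Ubxn8, which act in the removal of proteins from the endoplasmic reticulum, with log2 fold changes of -0.18 and -0.01, and neither was called. Of the 13 genes of sterol uptake and handling none was called, and the 3 most abundant were Npc2 (log2 fold change -0.17), Lipa (-0.07) and Apoe (-0.06). Among 5 genes of sterol efflux, Abcg1, an exporter of cholesterol, fell from a median of 3.51 to 2.30 RPKM, with 6 HLU mice below every control mouse (log2 fold change -0.52, exact permutation p = 0.0152, adjusted p = 0.744). Abca1 (-0.01) and Mylip (-0.00), which like Abcg1 are targets of the oxysterol receptors, were not called. None of the 16 genes of isoprenoid branches and prenylation was called, and the most abundant were Fnta (0.05), Rabggtb (-0.26) and Nus1 (-0.18). In the neighbouring list of 13 lipogenic enzymes, 2 were higher: Scd1, the stearoyl-CoA desaturase (log2 fold change 0.92, exact permutation p = 0.0426, adjusted p = 0.744), and Pnpla3 (0.76, p = 0.0395, adjusted p = 0.744). Elovl5 (-0.09) and Fads1 (-0.14), the other abundant genes of that list, were not.

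**Figure D2:**
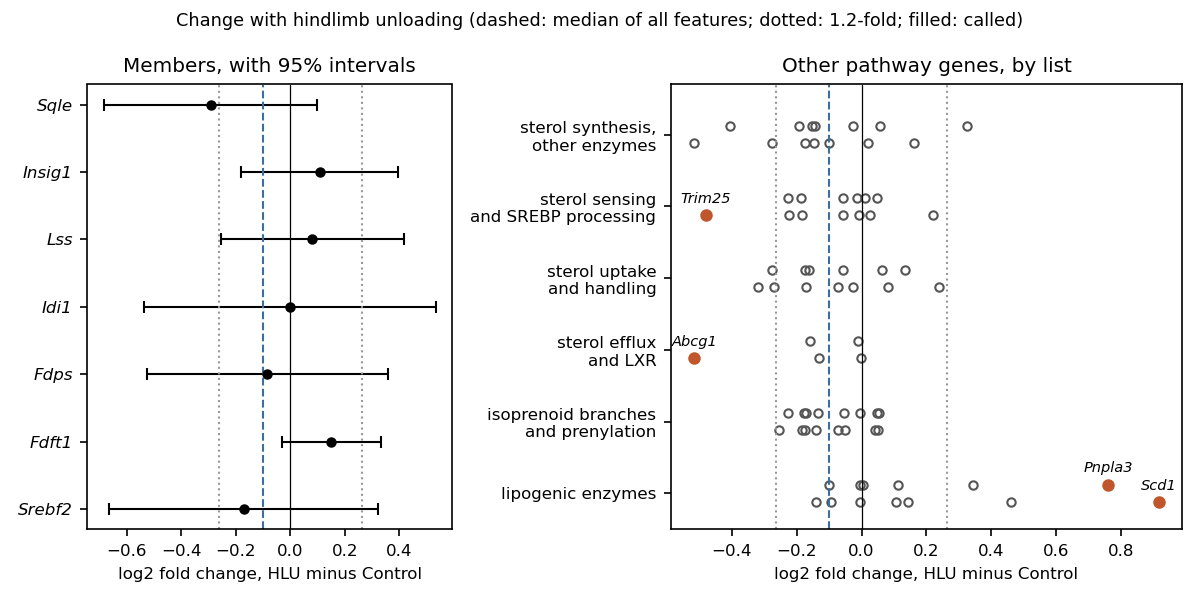
Log2 fold change, HLU minus control, of the members with 95% intervals (left) and of the other pathway genes by list (right), with the median of all features dashed, 1.2-fold dotted and called genes filled. All 7 intervals include 0; Trim25 and Abcg1 are the called genes below 0, and Scd1 and Pnpla3 those above.

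Covariation between mice was measured by Pearson's r of log2(RPKM + 0.1) after the mean of each group was removed, over 16 mice. For 10 lists of cell type and proliferation markers, the median r over pairs ran from 0.31 (macrophage) and 0.44 (endothelial) to 0.77 (granulocyte) and 0.81 (proliferation). The GC slope of a library is the change in log2 value per 10 percentage points of GC content across 14774 genes, relative to the mean of the libraries. Over the 21 pairs of members the median r was 0.10, with 14 pairs above 0 and a range from -0.24 to 0.68. The median turned to -0.10 under quantile normalization, with 8 pairs above 0, and was 0.23 with the GC slope of the libraries removed. Over all pairs of features the median was 0.04 and 53.0% were above 0. The 14 other enzymes of sterol synthesis had a median r of 0.13 over 91 pairs. Within control mice alone the members had a median r of 0.03, and within HLU mice alone 0.30, and the difference between the groups was not tested.

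Of the 21 pairs of members, 2 had an unadjusted permutation p under 0.05 and 0 had an adjusted p under 0.05. Fdps and Srebf2 had r = 0.68 (permutation p = 0.00729, adjusted p = 0.153, Spearman's rho 0.60 with permutation p = 0.0232). The r was 0.45 in control and 0.90 in HLU mice, and 0.39 without Control 4 and HLU 4, so it rested largely on those mice. Lss and Srebf2 had r = 0.53 (permutation p = 0.0463, adjusted p = 0.445, rho 0.52 with permutation p = 0.0499), with 0.90 in control mice but 0.10 in HLU mice, and 0.47 without Control 7 and HLU 2. Sqle and Idi1 had r = 0.46 (permutation p = 0.0636, adjusted p = 0.445). Insig1 had no pair above 0.12.

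The members were also compared with the rest of the pathway. The 7 members were set against the 61 other pathway genes, which makes 427 relations, and 42 had an adjusted p under 0.05, of which 41 were positive. Srebf2 held 22 of them, Fdps 8, Sqle 7, Insig1 3, Lss and Idi1 1 each, and Fdft1 0. The share of all features that meets this criterion was not computed, so the count stands without a background. For an r of at least 0.8 the share is known. It was 26.2% of pathway genes and 10.1% of all other features for Srebf2. For Fdps it was 8.20% and 2.24%, and for Sqle 6.56% and 3.69%. These shares of pathway genes stand for 16, 5 and 4 of the 61 genes. With the GC slope removed, 2 of the 61 genes reached 0.8 for Srebf2, beside 1.58% of all other features. For Fdps it was 1 gene, beside 0.819%, and for Sqle 5 genes, beside 7.78%. Some partners were shared: Scarb1 had r = 0.83 with Fdps and 0.82 with Srebf2, and Dhcr7 had 0.74 and 0.85. With the GC slope removed, Scarb1 had 0.71 with Fdps and 0.41 with Srebf2, and Dhcr7 had 0.52 and 0.50.

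Among the genes that moved with Fdps was Scarb1, a receptor that takes up cholesterol from high-density lipoprotein. Scarb1 ranged from 2.94 to 7.62 RPKM in control mice (median 4.48) and from 2.01 to 5.95 RPKM in HLU mice (median 4.85). In both groups the mouse with the lowest Fdps, Control 4 and HLU 4, also had the lowest Scarb1. Their r was 0.83 (permutation p = 0.00032, adjusted p = 0.00759, rho 0.68 with permutation p = 0.00771), with 0.69 in control mice and 0.92 in HLU mice. It was 0.58 without Control 4 and HLU 4, so the relation rested in part on those mice. Pmvk, which encodes phosphomevalonate kinase of the same pathway, had r = 0.81 with Fdps (permutation p = 0.00173, adjusted p = 0.0226, rho 0.58 with permutation p = 0.0269), but 0.39 without the same 2 mice. Dhcr7, which encodes a late reductase of cholesterol synthesis, had r = 0.74 (permutation p = 0.00316, adjusted p = 0.0353, rho 0.68 with permutation p = 0.00769), and 0.36 without them. The likeness of every feature to the mean of the standardized values of all 7 members was also computed, as a description. Outside the lists, those most like that mean were Ptpn11 (r = 0.89), Htt (0.86), Atg2b (0.85), Cyfip1 (0.84), n-R5s174 (0.83), Snrnp200 (0.83), Elovl1 (0.82), Vta1 (0.82), Ddb1 (0.81) and Atp6v0c (0.81).

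Sqle moved with Stard4, a carrier of cholesterol between membranes (r = 0.87, permutation p = 6e-05, adjusted p = 0.00366, rho 0.81 with permutation p = 0.00059), Lbr (r = 0.85, permutation p = 7e-05, adjusted p = 0.00374, rho 0.82 with permutation p = 0.00043) and Trim25 (r = 0.85, permutation p = 0.0003, adjusted p = 0.00759, rho 0.83 with permutation p = 0.00029). Without Control 6 and HLU 7 these 3 had r between 0.78 and 0.83. Sqle moved with the proliferation score too, which is the mean over 12 markers of dividing cells (r = 0.86, permutation p = 0.00019, adjusted p = 0.00997 over 105 relations, rho 0.71 with permutation p = 0.00421). That r was 0.56 in control mice (exact permutation p = 0.147), 0.98 in HLU mice and 0.83 without Control 6 and HLU 7. The 4 HLU mice with low Sqle, HLU 1, HLU 4, HLU 6 and HLU 7, were the 4 with the lowest proliferation scores in that group. Over the 61 pathway genes, the r of a gene with Sqle went with its r with the proliferation score (r = 0.91 across genes, which share the same 16 libraries). Because Sqle and the score themselves moved together over these mice, such agreement would follow for most sets of genes. It is therefore not a separate result about the pathway, and it was not computed for all features. The proliferation score itself was lower in HLU mice by 0.46 on the log2 scale (exact permutation p = 0.0883).

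Sqle was also high where the granulocyte score was high (r = 0.79, permutation p = 0.00169, adjusted p = 0.042, rho 0.50 with permutation p = 0.0634) and low where more reads lay outside the listed features (r = -0.74, permutation p = 0.00234, adjusted p = 0.042, rho -0.56 with permutation p = 0.035). Without Control 6 and HLU 7 these were 0.78 and -0.74, and in control mice alone they were 0.30 and -0.49. By rho, no relation of a member with these scores, library measures or Scd1 had an adjusted p under 0.05 (the lowest was 0.0814). With the proliferation score removed from both genes, r fell to 0.64 for Sqle with Stard4, 0.65 with Lbr and 0.70 with Trim25, whereas Fdps with Scarb1 had 0.80. The erythroid score went with Sqle (r = 0.73, permutation p = 0.00535, adjusted p = 0.0631, rho 0.58 with permutation p = 0.0266) and with Fdps (r = 0.64, permutation p = 0.0112, adjusted p = 0.0991, rho 0.67 with permutation p = 0.00909). The part of dividing or marrow cells in the values of Sqle was not tested.

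Insig1 moved with Scd1 (r = 0.79, permutation p = 0.0009, adjusted p = 0.0315, rho 0.74 with permutation p = 0.00282), with 0.67 in control mice, 0.85 in HLU mice and 0.76 without HLU 3 and HLU 5. It also moved with Insig2, the other INSIG gene (r = 0.79, permutation p = 0.00067, adjusted p = 0.0130, rho 0.76 with permutation p = 0.00184), and with the osteoclast score (r = 0.72, permutation p = 0.0024, adjusted p = 0.042, rho 0.79 with permutation p = 0.00102). Without HLU 3 and HLU 5 these were 0.68 and 0.61. HLU 5, the mouse with the highest Insig1, was also the HLU mouse with the highest osteoclast score.

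Srebf2 moved with many genes at once. The closest listed ones were Nr1h2, an oxysterol receptor (r = 0.94), Scap, the escort of the Srebf2 protein (r = 0.93), Icmt (r = 0.91) and Rabggta (r = 0.90), the last 2 being enzymes of prenylated proteins. For Scap the permutation p was 1e-05 (adjusted p = 0.00107), rho was 0.95 with permutation p = 2e-05, and r was 0.90 without Control 1 and HLU 4. A likeness of this size was common for Srebf2: r was at least 0.8 with 26.2% of the 61 pathway genes and with 10.1% of all other features, against 8.20% and 2.24% for Fdps and 6.56% and 3.69% for Sqle (a limit set after the values had been seen).

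The genes that went with Srebf2 were rich in G and C. Srebf2, with the highest GC content of the members (57.8%), moved with the GC slope (r = 0.87, permutation p = 0.00015, adjusted p = 0.00997, rho 0.70 with permutation p = 0.005). The r was 0.91 in control mice, 0.82 in HLU mice and 0.75 without Control 1 and HLU 4. Across the 59 pathway genes with a known GC content, r with Srebf2 went with GC content (r = 0.88 across genes). Srebf2 was not alone in this: the same figure was 0.78 for Lss, 0.77 for Fdps and 0.70 for Fdft1. It was -0.44 for Sqle, -0.52 for Insig1 and -0.67 for Idi1. These figures were not computed over all features. Once the slope was removed, r with Srebf2 fell from 0.93 to 0.70 for Scap, from 0.94 to 0.74 for Nr1h2, from 0.87 to 0.19 for Srebf1 and from 0.83 to -0.01 for Nr1h3, whereas it went from 0.15 to 0.83 for Trim25 and from 0.04 to 0.82 for Lbr. For Fdps with Srebf2 it fell from 0.68 to 0.36. With the slope removed, Fdps with Scarb1 had r = 0.71, Sqle with Stard4 0.90 and Insig1 with Scd1 0.81. The GC slope did not separate the groups (difference 0.01, exact permutation p = 0.974). The cause of the slope was not tested.

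**Figure D3:**
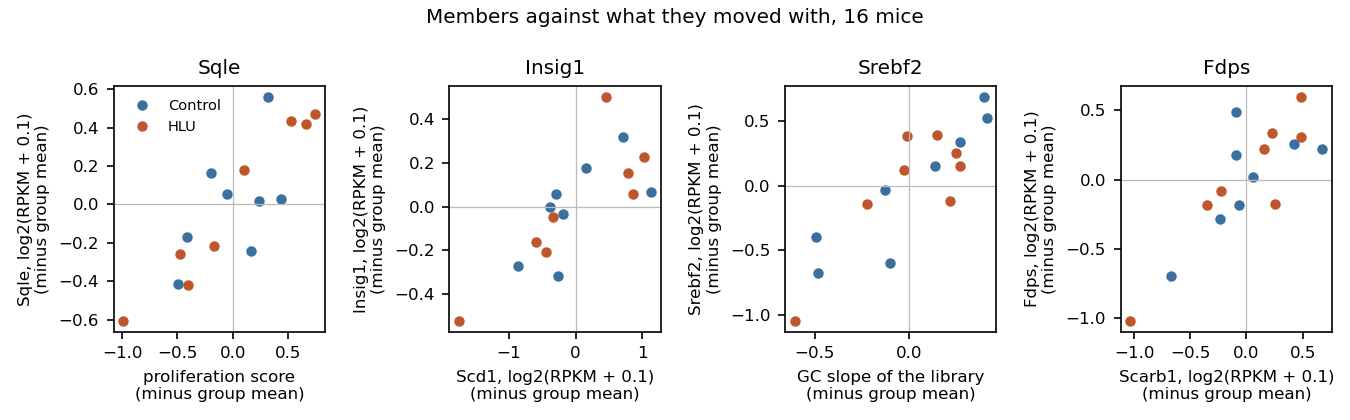
Members against the measure or gene they moved with, each point 1 mouse and both axes with the group mean removed (log2 units, or score and slope units). Sqle rises with the proliferation score (r = 0.86), Insig1 with Scd1 (r = 0.79), Srebf2 with the GC slope (r = 0.87) and Fdps with Scarb1 (r = 0.83).

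Lss, Idi1 and Fdft1 had few close partners. Counting error limits how high r can be for Lss and Idi1. Their counting SDs, without the added 0.1, were 0.11 and 0.27, beside SDs within groups of 0.16 and 0.48. Lss moved with Fntb, a farnesyltransferase subunit (r = 0.74, permutation p = 0.00133, adjusted p = 0.0196, rho 0.63 with permutation p = 0.0149, r = 0.70 without Control 7 and HLU 2). Fdft1 had no relation with an adjusted p under 0.05, its highest r with another member being 0.46, with Fdps. Of the 15759 other features, 1 reached an r of 0.8 with Fdft1, against 3 for Lss and 5 for Idi1. Against the mean of the other members, Fdps had the highest r (0.63), followed by Srebf2 (0.48) and Lss (0.38), and Insig1 had the lowest (-0.04).

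**Figure D4:**
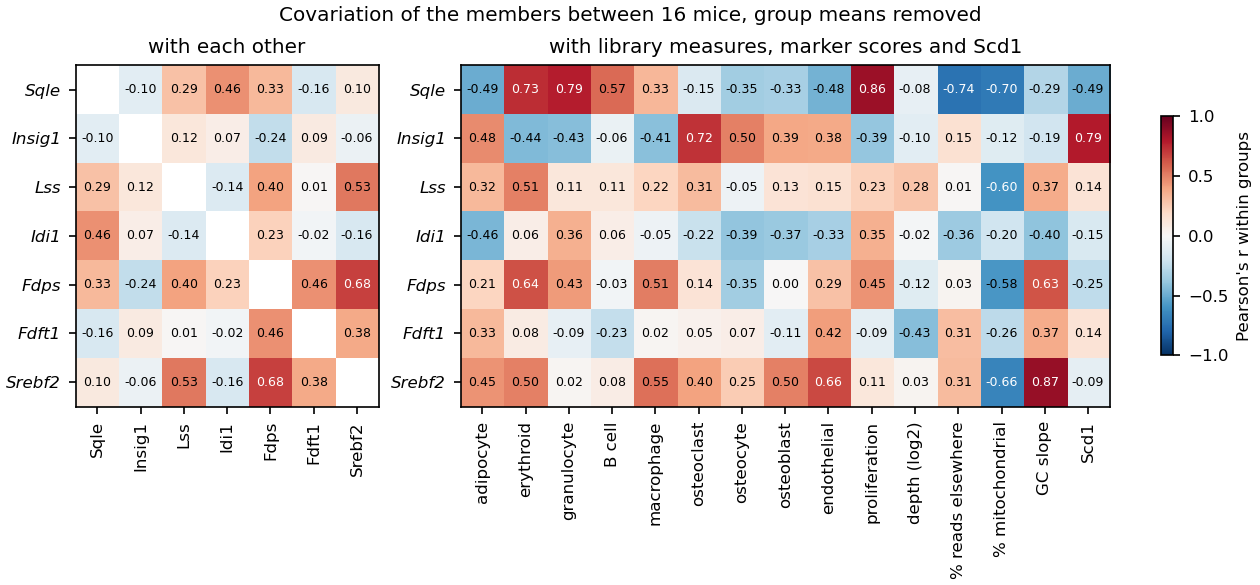
Pearson's r within groups over 16 mice between members (left) and of each member with marker scores, library measures and Scd1 (right), from -1 (blue) to 1 (red). Most pairs of members lie near 0 (median 0.10), while Sqle goes with the proliferation (0.86) and granulocyte (0.79) scores and Srebf2 with the GC slope (0.87).

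**Figure D5:**
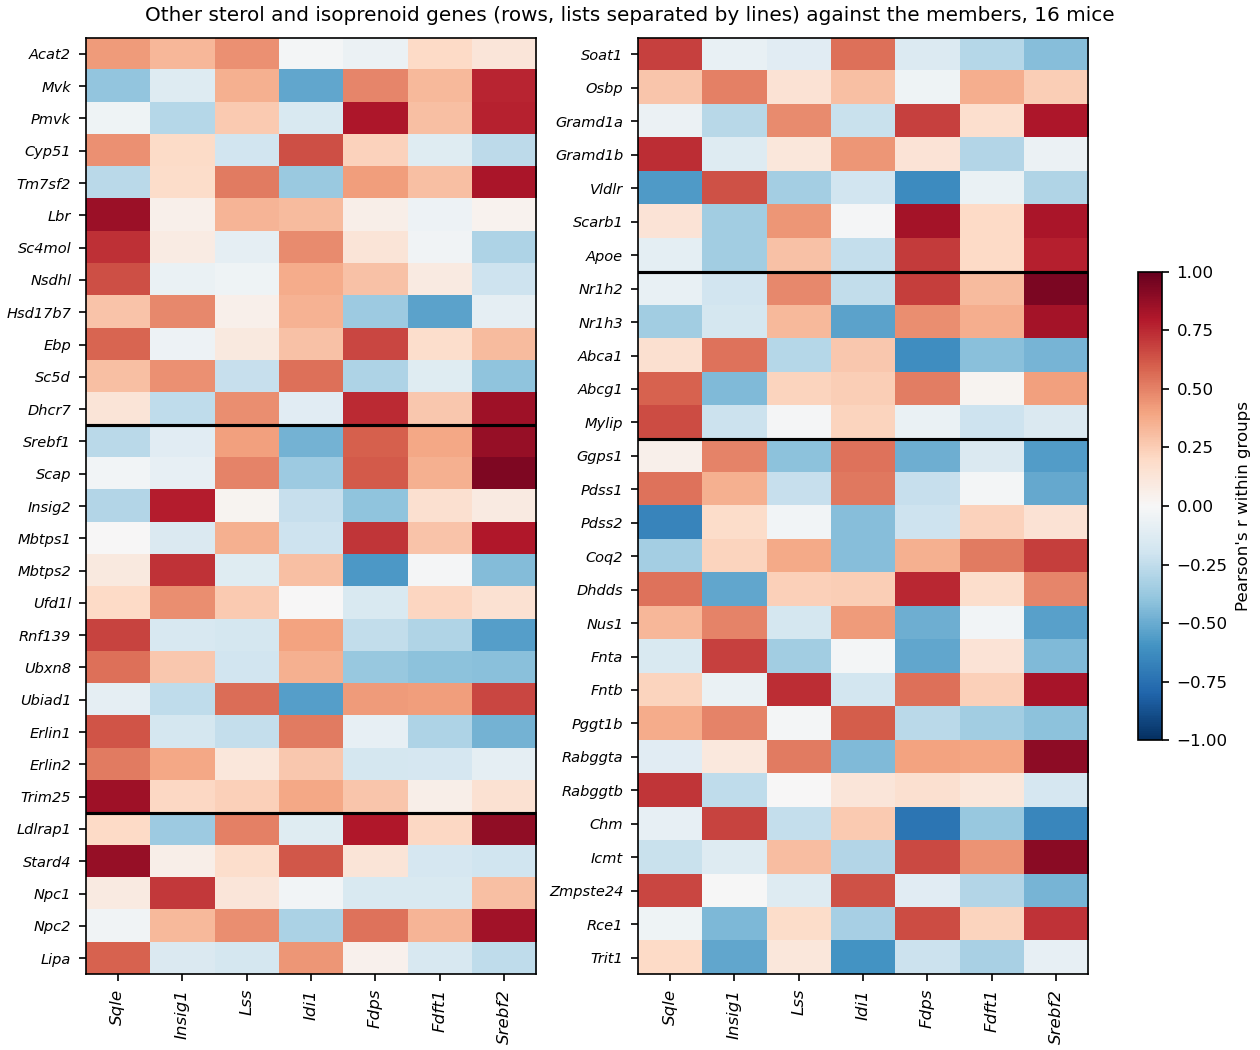
Pearson's r within groups over 16 mice of other sterol and isoprenoid genes (rows, lists separated by lines) with each member (columns), from -1 (blue) to 1 (red). Scarb1 is dark for Fdps (0.83), Stard4 for Sqle (0.87) and Nr1h2 for Srebf2 (0.94), and no gene is dark for Fdft1.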

How the data were processed

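Cortical bone RNA of 16 mice (8 control, 8 HLU, by the sample labels) was analysed from 1 deposited value file per mouse. The authors prepared TruSeq v2 libraries, which do not mark strand, sequenced 8 per lane and mapped them with TopHat2, and the deposited RPKM values are of single mice. The submitters' processing notes name mm9 and DESeq2. The annotation, gene lengths and counting tool are not given in the sources used here. RPKM does not correct for base composition or for a few abundant genes. The files hold no fold changes or p-values, and 3887 features carry the symbol Rnf135.

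Members and gene lists were chosen with earlier results of these data known. A test on counts was not the main one because the unit is RPKM. HLU was compared with control by limma 3.58.1 (R 4.3.3) on log2(RPKM + 0.1), with a variance trend, for features of mean RPKM at least 0.5, with Benjamini-Hochberg adjustment. Calls needed 1.2-fold with a p under 0.05 before adjustment or under 0.1 after it. Single values were tested over all 12870 splits of the mice (smallest p 0.000155). Correlations used values centred on group means, 100000 permutations within groups, exact permutation of 8 mice within a group, and adjustment over 21, 105 or 427 relations; a design of 28 pairs became 21 because Hmgcs1 was not analysed. All tests were two-sided. Named genes were all members, called pathway genes, the 3 with the highest mean RPKM in each list, and the 10 features outside the lists most like the members' mean; the partners in the covariation results were named after their values had been seen, and some genes are not reported here by name, although the counts include them. A marker score averages the log2(RPKM + 0.1) values of a list after subtracting each gene's own mean. GC content came from GENCODE M21 (GRCm38), which matched 93.7% of unique symbols, as did positions and overlaps; copies were found with blastn 2.17.0.

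Whole reads were recovered as the counts that make all values of a feature whole after division by 1 length and 1 depth per library (largest distance from a whole number 0.000112). Scripts were tested on simulated data. Depth ranged from 7067512 to 21363584 reads. Alternatives tried were 2 other pseudocounts, 2 other filters, 2 scalings, a replicate block, voom on the recovered reads, marker scores as covariates, and each mouse left out. Computation used Python 3.11.15 with numpy 2.4.6, scipy 1.17.1, pandas 2.3.3 and matplotlib 3.10.9.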

Additional observations from a re-analysis of the deposited data

Results flagged for a closer look

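The library of HLU 5 was shallow for its group. Its depth on the log2 scale was 22.9, the nearest HLU library had 23.9, and the gap was 0.661 of the range of the group, above Dixon's 95% critical value for 8 samples. Among 30 groups of values checked this was the 1 that stood out, and chance alone does so in about 1 of 20 groups. The lowest control library, Control 2, was shallower still but not far from its group by this rule. HLU 5 had the highest Insig1 of all mice (21.3 RPKM), and without HLU 5 and Control 2 the log2 fold change of Insig1 was -0.0095 in place of 0.11 (adjusted p = 0.987).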

How the results depend on the processing

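Every member stayed below the threshold in every alternative run except Fdft1, which was called under quantile normalization only (0.28, adjusted p = 0.897, 1 member called in place of 0). Sqle, Lss and Fdft1 kept their direction in all alternatives run for them. Idi1, at -0.00, turned to 0.0083 with a pseudocount of 0.01, 0.076 and 0.098 under median-of-ratios and quantile scaling, 0.14 with the share of reads outside listed features as a covariate, 0.0028 with the GC slope as one, and -0.16 to 0.093 with 1 mouse left out. Fdps turned to 0.0080 and 0.052 under the same 2 scalings, 0.27 with the erythroid and granulocyte scores as covariates, and -0.18 to 0.061 with 1 mouse left out. Srebf2 turned to 0.38 with those scores, and Insig1 to -0.0095 without the 2 shallowest libraries. Calls over all features numbered 996, 2959 with those scores, 1647 with the GC slope, and 588 to 1748 with 1 mouse left out. They fell below 664 without Control 6 (649), Control 7 (659), HLU 1 (629) or HLU 7 (588), and rose without HLU 2 (1748). Calls among the 61 pathway genes numbered 2, 4 under quantile normalization or with the share outside listed features, 9 with the scores, 6 with the GC slope, and 2 to 5 with 1 mouse left out, the highest without Control 5 or HLU 2. The cause of these differences was not tested. The median r over pairs of members, 0.10, was 0.051 under median-of-ratios scaling, -0.098 under quantile normalization, 0.14 as Spearman's rho, 0.16 with the scores removed, 0.23 with the GC slope removed, 0.028 in control and 0.30 in HLU mice, and 0.050 to 0.18 with 1 mouse left out (0.18 without Control 2, 0.050 without HLU 1). The alternatives with the share of reads outside listed features, the GC slope and the 2 shallowest libraries were added after the data had been seen.

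Same-numbered control and HLU mice did not in general deviate together (r from -0.17 to 0.51 over 8 pairs). For number 4 alone was the best partner the same-numbered mouse. The labels do not say whether the numbers pair the mice, and these values cannot settle it. With the replicate block, 1039 features, 4 pathway genes and 0 members were called. With voom on the recovered reads, 1098 features, 2 pathway genes and 0 members were called.

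Depth limits Idi1 most, which has as few as 10 reads in a library. Lss lies near the filter at 0.632 RPKM, and Idi1 and Lss gave no value at a minimum mean of 2 RPKM. The 95% interval of each member reaches beyond 1.2-fold in at least 1 direction.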
